A study of Mus musculus with 7 samples.

Results

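Notch signalling genes were examined in single-cell RNA sequencing of the ventricular-subventricular zone (V-SVZ), the layer of stem cells and their progeny along the lateral ventricles of the mouse brain. The 10 genes were chosen by symbol: the receptors Notch1, Notch2 and Notch3, the ligands Dll1 and Jag1, the DNA-binding protein Rbpj and the target genes Hes1, Hes5, Hey1 and Heyl. They are 10 of the 32285 genes listed for each library, all 10 had counts, and together they held 0.0451% of all unique molecular identifiers (UMIs), the tags by which a captured mRNA is counted a single time. Notch receptors are cut when a ligand on a neighbouring cell binds them, and the freed intracellular domain joins Rbpj in the nucleus and switches on repressors of the Hes and Hey families. In the V-SVZ, Notch signalling is known for keeping neural stem cells (NSCs) undivided and undifferentiated, while daughter cells that express Dll1 act as senders. In vessels, Notch signalling is known for arterial identity and for the upkeep of mural cells, the smooth muscle cells and pericytes on the vessel wall.

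The study asked what the transcription factor Prdm16 does in radial glia and NSCs after birth. The 7 libraries comprised 3 from control mice (genotype given as Prdmflox/flox, littermates without Cre), 3 from Prdm16 cKO mice (hGFAP-Cre+/-; Prdm16flox/flox) and 1 from double knockout (DKO) mice (hGFAP-Cre+/-; Prdm16flox/flox; Vcam1flox/flox), in which the gene of the adhesion molecule Vcam1 is floxed as well. Mice were 31 to 33 days old, each library pooled the tissue of 2 to 3 mice of both sexes, and every group carried the floxed Prdm16 allele. The human GFAP promoter drives Cre in radial glia from embryonic stages and in astrocytes, so their progeny carry the deletion from before birth, and vessel cells and microglia do not descend from these cells. Since a library is a pool, differences were read against the spread between 3 pools a group. The DKO library has no replicate, so no test compares it with another group. It does enter the joint fit and the comparisons of populations over 7 libraries. Which part of Prdm16 its allele removes is not given in the sources used here, so its 3′ tags may check no label. In NSC-like cells they were at 74.4, 63.6 and 68.3 CPM (the gene's share of all UMIs of those cells, scaled to 1e6) in control, 55.4, 51.2 and 46.6 in cKO and 55.9 in DKO libraries. Vcam1 was at 153, 127 and 105 CPM in control, 148, 178 and 170.3 in cKO and 86.8 CPM in DKO libraries there. Which part of Vcam1 its allele removes is not given in the sources used here, so these tags may check no label either.

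Libraries held 45758003 to 141353017 UMIs, and 43346 cells with 500 to 7000 genes and at most 10% mitochondrial counts were kept. cKO libraries 2 and 3 kept 49.8% and 47.2% of their barcodes and the other 5 libraries 70.2% to 74.7%. cKO library 1 stood closest to the controls of the cKO libraries: in NSC-like cells the median absolute log2 distance from the control mean was 0.186 for library 1, 0.343 for library 2 and 0.348 for library 3. The controls were at 0.264, 0.256 and 0.258, each from the mean of the other controls, which rests on fewer libraries. In each population cKO library 1 had a smaller distance than every control, and the cause was not tested. Pairs of libraries shared 2 to 70 cell barcodes, at most 1.48% of the smaller library. The most were shared by cKO library 1 with control library 2 (70) and control library 1 (61), and by these controls with each other (50). Control library 3 and the DKO library followed (47). The cause of the sharing was not tested. Clusters were named from marker genes, and 37914 cells fell into 13 populations: 11 named ones, cluster 9, led by the replication genes Cdc6, Mcm2 and Mcm3 and the progenitor factor Gsx1, and cluster 15, led by Bmp4, Gpr17 and Tnr. Cluster 9 carried 4 neuroblast and cluster 15 carried 4 markers of oligodendrocyte precursors (OPC), enough for those names, and both were kept apart and unnamed by a choice made after their leading genes were seen. The NSC-like cluster (5398 cells) was led by Thbs4 and Gfap and carried 7 NSC and 7 astrocyte markers, each from a list of 8. The order of the marker lists settled this tie in the name. The 8 Notch pathway genes among the variable features were taken out before clustering. All levels below are UMI counts summed over the cells of a population in a library, in CPM. They are read between populations for 1 gene, not between genes.

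The members lie on chromosomes 2, 3, 4, 5, 16 and 17 of build GRCm38 and are all protein-coding genes in the GENCODE annotation. The receptors are Notch1 (ENSMUSG00000026923, chr2:26457903-26516663, - strand), Notch2 (ENSMUSG00000027878, chr3:98013527-98150361, + strand) and Notch3 (ENSMUSG00000038146, chr17:32120820-32166852, - strand). The ligands are Dll1 (ENSMUSG00000014773, chr17:15367354-15376872, - strand) and Jag1 (ENSMUSG00000027276, chr2:137081456-137116644, - strand), and Rbpj is ENSMUSG00000039191 (chr5:53466152-53657362, + strand). The targets are Hes1 (ENSMUSG00000022528, chr16:30064384-30067796, + strand), Hes5 (ENSMUSG00000048001, chr4:154960923-154962371, + strand), Hey1 (ENSMUSG00000040289, chr3:8663359-8667256, - strand) and Heyl (ENSMUSG00000032744, chr4:123233556-123249875, + strand).

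Notch1, a receptor of neural progenitors and of vessels, was found over most of the lineage and in both kinds of vessel cell. Its level over the 7 libraries was 277 to 385 CPM in mural-like cells (median 351), 218 to 317 in endothelial-like cells (median 231), 202 to 314 in NSC-like cells (median 257) and 177 to 242 in astrocyte-like cells (median 213). The gene was higher in mural-like than in endothelial-like cells in 7 of 7 libraries, whereas endothelial-like and NSC-like cells differed by 0.01 ± 0.27 on the log2(CPM + 1) scale (mean ± SD over 7 libraries), less than their spread. Along the neurogenic lineage the mean was 253 ± 43.2 CPM in NSC-like cells, 198 ± 33.6 in cluster 9, 180 ± 29.5 in cells with markers of dividing transit-amplifying progenitors (TAP-like), and in neuroblast-like cells the mean log2(CPM + 1) was 5.78 ± 0.48, against 7.97 ± 0.25 in NSC-like cells. Neuron-like cells held the lowest level.

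Notch2, a receptor of stem cells and glia, had a narrower pattern. It was at 52.9 to 193 CPM in NSC-like cells (median 90.6) and at 40.5 to 120.0 in astrocyte-like cells (median 60.5), and the NSC-like cells were higher in 7 of 7 libraries. Microglia-like cells (22.9 to 57.6 CPM), mural-like cells and ependymal-like cells followed, with differences between neighbours below their spread. TAP-like cells held 10.9 ± 3.51 CPM. Thus from NSC-like to TAP-like cells the mean of Notch1 went from 253 to 180 CPM and that of Notch2 from 105 to 10.9.

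Notch3, the receptor of smooth muscle and pericytes, was concentrated in mural-like cells at 555 to 807 CPM (median 679). The next population, astrocyte-like cells, held 16.5 to 30.2 CPM (median 21.9). The gap was 4.84 ± 0.24 on the log2(CPM + 1) scale and was seen in 7 of 7 libraries. Endothelial-like (13.6 ± 3.67 CPM) and NSC-like cells (11.3 ± 2.87 CPM) differed by less than their spread, and in the other 9 populations the mean was at most 1.46 CPM.

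Of the ligands, Dll1, a transmembrane ligand of neural progenitors, was highest in cluster 9 (40.1 to 79.1 CPM, median 59.1), in cells with markers of oligodendrocyte precursors (OPC-like, 31.7 to 53.3 CPM, median 45.5) and in TAP-like cells (30.7 to 46.7 CPM, median 39.5). These 3 populations were not cleanly ordered: cluster 9 was above OPC-like cells in 5 of 7 libraries, and OPC-like above TAP-like cells in 6 of 7. The step to NSC-like cells, at 3.34 to 14.4 CPM, was 2.01 ± 0.63 on the log2(CPM + 1) scale and was seen in 7 of 7 libraries. Notch2 and Dll1 thus peaked in different members of the lineage, Notch2 in NSC-like cells and Dll1 in cluster 9, TAP-like and OPC-like cells. Dll3, a ligand-related protein that acts inside the cell, had the order of Dll1 at the top, with 74.7 ± 22.3 CPM in cluster 9, 49.4 ± 16.6 in OPC-like and 35.0 ± 11.4 in TAP-like cells.

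Jag1, a ligand of vessel walls and of several epithelia, was highest in mural-like cells (96.7 to 184 CPM, median 116) and next in endothelial-like cells (38.9 to 96.9 CPM, median 44.1), in this order in 7 of 7 libraries. Cluster 9, OPC-like, NSC-like and TAP-like cells lay between means of 25.8 and 17.8 CPM, with differences below their spread. Astrocyte-like cells held a mean log2(CPM + 1) of 2.18 ± 0.91. The endothelial ligands Dll4 and Jag2 were highest in endothelial-like cells, at 95.3 ± 27.1 and 139 ± 24.5 CPM.

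Rbpj, the DNA-binding protein of the pathway, had the smallest range over populations of the 10 members on a log scale. Its mean log2(CPM + 1) ran from 7.21 ± 0.22 in cluster 9 to 4.91 ± 0.29 in neuron-like cells. From TAP-like (6.60 ± 0.19) to endothelial-like cells (5.90 ± 0.19), 9 populations followed each other at steps of at most 0.16.

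Among the target genes, Hes5, the repressor most tied to Notch activity in neural stem cells, was highest in astrocyte-like cells (508 to 740 CPM, median 632). OPC-like (304 to 562 CPM, median 352) and NSC-like cells (138 to 706 CPM, median 460) came next and differed by 0.01 ± 0.61 on the log2(CPM + 1) scale. NSC-like cells had by far the widest spread of the 3, which the comparison of genotypes below takes up. Cluster 9 (51.1 to 87.4 CPM) and TAP-like cells (18.8 to 56.3 CPM) were lower in every library, and neuroblast-like cells were at 4.21 to 11.5 CPM.

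Rbpj is known to bind DNA at the letters GTGGGAA, and the stretch before the Hes5 start is shown because it was the only one of a member to hold them. RefSeq windows of build GRCm38.p6 were at hand for 7 of the 10 members (Notch1, Notch2, Notch3, Dll1, Jag1, Hes5 and Rbpj), and GTGGGAA was searched on both strands in the 250 bases before each start. Hes5 held 2 matches, 226 and 83 bases before the start and on opposite strands. Of 32851 windows, 5.42% held at least 1 match and 53 (0.161%) held 2 or more. Of the other pathway genes named for their levels, Hey2 and Lfng held 1 match each, shown with 10 bases on both sides. Capitals mark the matches (TTCCCAC is the same site on the other strand), and each sequence is written 5′ to 3′ on the strand of the gene. A match describes these letters only.
Hes5, chr4:154960673-154960922, + strand: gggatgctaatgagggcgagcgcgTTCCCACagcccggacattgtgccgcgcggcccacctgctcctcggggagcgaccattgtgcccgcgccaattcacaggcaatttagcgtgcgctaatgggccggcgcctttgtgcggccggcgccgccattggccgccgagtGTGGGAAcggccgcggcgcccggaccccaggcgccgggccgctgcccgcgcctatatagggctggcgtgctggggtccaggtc
Hey2, chr10:30842974-30843000, - strand: cgcggtggcaTTCCCACgcctctgcca
Lfng, chr5:140607222-140607248, + strand: cgtatcccacGTGGGAAggagagatct

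Hes1, a repressor that many tissues use, followed the vessels. It was at 347 to 511 CPM in mural-like cells (median 465) and at 148 to 283 in endothelial-like cells (median 218), each step lower in 7 of 7 libraries. OPC-like (138 ± 33.4 CPM), NSC-like (110 ± 26.4 CPM), ependymal-like (83.7 ± 18.7 CPM) and astrocyte-like cells (81.2 ± 16.3 CPM) followed. In neuroblast-like cells it was at 0.406 to 2.85 CPM.

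Hey1, a repressor known from arteries and the developing brain, was highest in ependymal-like cells (64.9 to 119 CPM, median 95.1). Endothelial-like cells (47.2 to 127 CPM, median 65.8) and astrocyte-like cells (59.3 to 81.8 CPM, median 66.8) did not differ from each other beyond their spread, and neuron-like cells held 49.7 ± 7.86 CPM. In NSC-like cells the mean log2(CPM + 1) was 5.04 ± 0.25. In TAP-like cells it was 2.36 ± 0.13, a further step down the lineage of the kind Notch2 and Hes5 showed.

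Heyl, a relative of Hey1 known from smooth muscle, was nearly limited to mural-like cells, with 141 to 299 CPM (median 255). The next population, astrocyte-like cells, held 3.56 to 10.3 CPM, a gap of 5.05 ± 0.33 on the log2(CPM + 1) scale that was seen in 7 of 7 libraries. Hey2, its relative in the vessel wall, was also highest in mural-like cells, at 162 ± 33.5 CPM, but held 32.3 ± 7.75 CPM in astrocyte-like and 28.4 ± 6.36 CPM in NSC-like cells. Nrarp, a feedback inhibitor that Notch itself induces, was at 161 ± 55.8 CPM in mural-like and 149 ± 33.7 CPM in astrocyte-like cells.

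Further pathway genes placed these levels in the lineage. Hes6, a Hes protein that counters Hes1, was at 314 ± 48.6 CPM in cluster 9, 254 ± 46.6 in TAP-like and 67.8 ± 18.4 in NSC-like cells. Lfng, an enzyme that adds sugars to Notch receptors, was at 171 ± 44.0 CPM in astrocyte-like, 107 ± 25.2 in NSC-like and 24.2 ± 4.51 in TAP-like cells. Hes6, Dll1 and Dll3 thus had their highest means in cluster 9, and Hes5, Notch2 and Lfng in astrocyte-like or NSC-like cells.

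**Figure D1:**
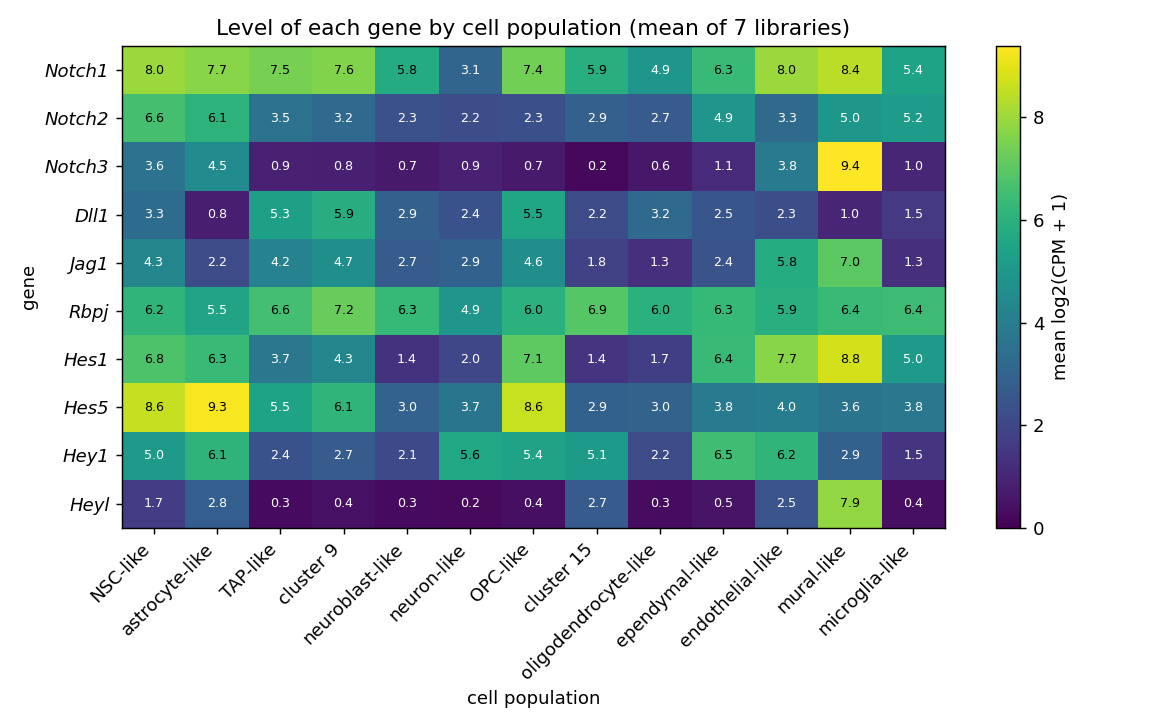
Levels of the 10 members in the 13 populations, as the mean log2(CPM + 1) over 7 libraries, shown by colour and number. Rows are read along, not between, since 3′ counts of different genes are not comparable. Notch3 and Heyl stand out in mural-like cells, Hes5 in astrocyte-like, OPC-like and NSC-like cells, and Rbpj has the smallest range.

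Over the 10 members, 120 steps between neighbours in the order of populations were compared. In 28 of them the upper population was higher in all 7 libraries, which gives the smallest two-sided p an exact permutation test over 7 pairs allows (0.015625). After Benjamini-Hochberg adjustment over the 120 steps that p became 0.067, so no step could pass 0.05. The first population of each member was the same in the control libraries alone for 10 of 10 members. With finer clusters (resolution 0.3) it was the same for 8 of 10, and there Dll1 was highest in TAP-like and Rbpj in neuroblast-like cells. There the cluster led by the same genes as cluster 9, with the same 4 neuroblast markers, was counted with the neuroblast-like cells. The cause of these 2 changes was not tested.

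The same patterns were described by the share of cells with a UMI, with each cell of at least 2000 UMIs thinned to 2000. Shallower cells were left out of the thinned shares but not of the unthinned ones, so both rest on different cells: 5294 of 5398 NSC-like, 2336 of 2383 astrocyte-like, 6917 of 7829 neuroblast-like, 943 of 1126 mural-like, 2061 of 2763 endothelial-like and 1543 of 2787 ependymal-like cells were deep enough. Hes5 was found in 60.1% of astrocyte-like cells (median of 7 libraries, 88.5% unthinned), in 44.3% of NSC-like cells (66.8% unthinned), in 41.2% of OPC-like cells (60.9% unthinned) and in 6.31% of TAP-like cells (20.0% unthinned). In oligodendrocyte-like, mural-like, endothelial-like and microglia-like cells, where Hes5 is not known to be made, the share was 1.65%, 1.68%, 1.88% and 2.29%, at median depths of 17469, 4286, 4297 and 4348 UMIs. Shares at that level are read as background RNA, and neuroblast-like cells, at 1.56%, did not rise above it. Notch3 was found in 69.2% of mural-like cells (85.2% unthinned) and Heyl in 38.4% (63.6% unthinned), against 0.103% and 0.0927% in oligodendrocyte-like cells.

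Within the vessels, endothelial-like cells held an arterial-like sub-cluster (334 cells, 22 to 83 a library), and mural-like cells a pericyte-like (619 cells) and a smooth muscle-like one (192 cells, 9 to 55 a library). The mural sub-clusters were made together with cluster 16 (341 cells with mural and endothelial markers), which was left out of the populations. Counted with cluster 16, unnamed mural sub-clusters held 271, 215, 100 and 65 cells and were not compared. As sub-clusters were made from the same cells, their differences are a description with no test. The other endothelial-like cells were mixed: beside a capillary-like sub-cluster (993 cells) and an unnamed one led by Gm9946 and Slc26a10 (446 cells), they held unnamed sub-clusters of 515 and 261 cells with medians of 1801 and 988 UMIs and leading genes such as Mbp and Penk, and of 108 and 106 cells led by Hbb-bt and by Fjx1 and Slc7a10. Levels of endothelial genes in the other cells are averages over this mixture. Hey1 was at 176 to 330 CPM in arterial-like cells (median 204) and at 28.2 to 96.8 in the other endothelial-like cells (median 40.6), a mean log2 difference of 2.33 ± 0.48. Jag1 was at 136 against 46.9 CPM, Notch1 at 392 against 232, Notch4, a receptor of endothelium, at 147 against 59.7, Dll4 at 184 against 82.0, and Jag2 at 329 against 112 CPM (means of 7 libraries). All 6 were higher in the arterial-like cells in 7 of 7 libraries, and Hes1 was higher in 2 of 7.

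In the vessel wall, Notch1 separated the sub-clusters and Notch3 did not. Notch1 was at 346 to 543 CPM in pericyte-like cells (median 481) and at 98.7 to 196 in smooth muscle-like cells (median 148), without overlap. Notch3 was at 635 ± 79.2 CPM in pericyte-like and 821 ± 184 in smooth muscle-like cells, higher in the latter in 6 of 7 libraries, a log2 difference of 0.35 ± 0.34, about its own spread. Jag1 (200 against 117 CPM) and Nrarp (341 against 91.3 CPM) were higher in smooth muscle-like cells in 7 of 7 libraries, while Heyl, at 218 against 275 CPM, was higher there in 1 of 7.

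**Figure D2:**
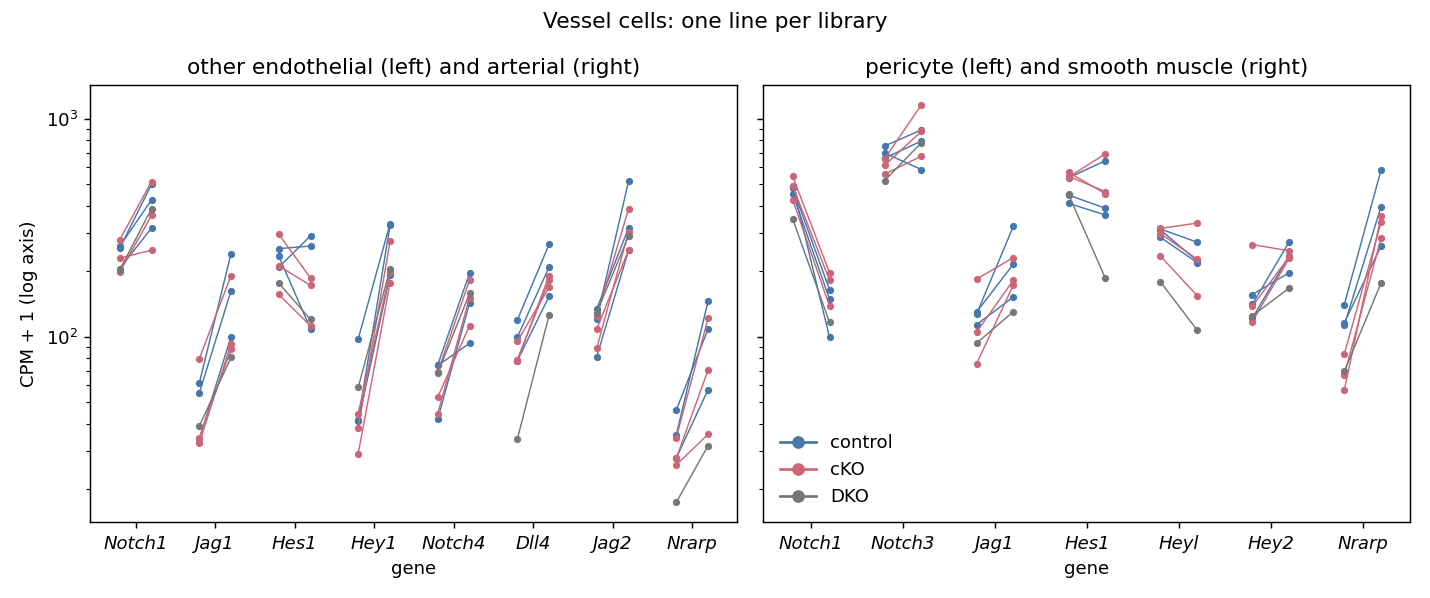
Levels of Notch genes in other endothelial-like and arterial-like cells (left) and in pericyte-like and smooth muscle-like cells (right), as CPM + 1 on a log axis, with 1 line a library coloured by genotype. Hey1, Jag1 and Notch1 lie higher in arterial-like cells in all 7 libraries, and Notch1 lies lower in smooth muscle-like than in pericyte-like cells in all 7.

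For each member, the genes most alike in pattern were found by the Pearson correlation of mean log2(CPM + 1) over the 13 populations, among 8925 genes with at least 50 CPM in a population. These values describe likeness only, and the points share their libraries. Notch3 was most like Cox4i2 (r = 0.989), Pdgfrb (0.978) and Sod3 (0.957), Heyl most like Ggt1 (0.970), Atp13a5 (0.935) and Tmem45a (0.932), and Hes5 most like Dipk1c (0.962), Wnt7b (0.949) and Ednrb (0.939). Notch2 was most like Sdc4 (0.938), Acsf2 (0.915) and Ccdc80 (0.910), Jag1 most like Phf2 (0.928), Prss23 (0.910) and Ackr3 (0.898), and Hes1 most like Lpp (0.948), Laptm4a (0.918) and Stom (0.912). Dll1 was most like Gsx1 (0.920), Dll3 (0.916) and Mcm2 (0.885), Hey1 most like Nebl (0.957), Csgalnact1 (0.904) and Kifc3 (0.894), and Notch1 most like Pkn2 (0.908), Szrd1 (0.905) and Ccnd3 (0.896). Rbpj had the lowest values, with Serp1 (0.862), Gtf3a (0.857) and Pgls (0.848).

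The main comparison of the design was cKO against control in each population. Of 130 pairs of a member and a population, 106 passed the filter on low counts and were tested with edgeR's quasi-likelihood test. After Benjamini-Hochberg adjustment over all genes of a population, none of the 106 was called at 0.05, by edgeR or by DESeq2, where 0.124% of all 160782 pairs of a gene and a population were called. At an unadjusted p under 0.05 there were 16 of 106 (15.1%), 3 higher and 13 lower in cKO libraries, against 5.96% of all pairs. Groups did not overlap in 17.9% of the members' pairs and in 11% of all pairs. The members' own direction was lower in 64 pairs and higher in 42. Pairs share genes and libraries, and the members were chosen with earlier results of these data known. These shares are therefore a description only.

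**Figure D3:**
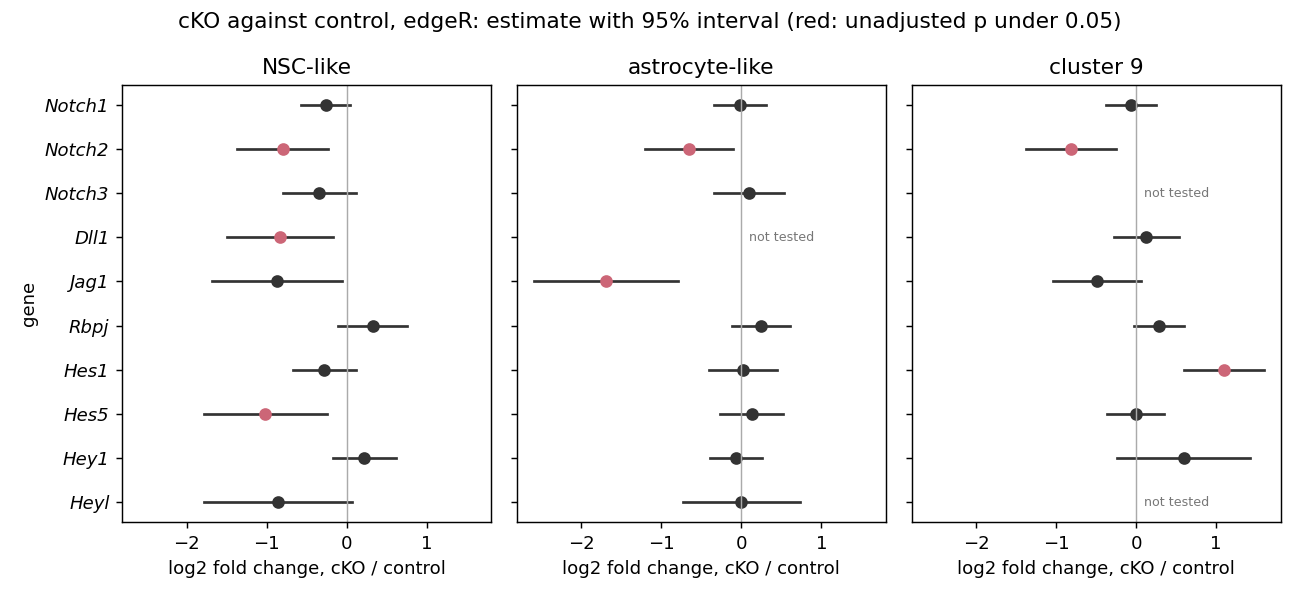
Log2 fold change (cKO against control) of each member in NSC-like cells, astrocyte-like cells and cluster 9. Lines reach 1.96 standard errors to each side, and points are red where the unadjusted p of edgeR was under 0.05. The lines are labelled as 95% intervals but are narrower than those of the test, so a line can miss 0 where p is above 0.05. In NSC-like cells 8 of 10 members lie below 0, and none of the values passed the adjustment over all genes.

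In NSC-like cells, where Notch signalling is best known in this tissue, 8 of the 10 members had lower values in cKO libraries, with a median log2 fold change of -0.57, against -0.01 over all genes tested. By edgeR with Benjamini-Hochberg adjustment 0 of 10 were called, where 0.249% of genes were, and 3 (Notch2, Dll1 and Hes5) had an unadjusted p under 0.05, where 13.8% of genes did. For Notch1, Notch3, Dll1 and Hes5 all 3 cKO libraries were lower than all 3 controls in CPM, as for 10.7% of genes. CPM leave out the TMM factors by which the test scales libraries. In these cells the factors were 1.10 for control library 1, 1.00 for cKO library 1 and 0.932 for cKO library 3. Divided by their factors, the groups overlapped for Hes5 and Notch3.

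Hes5 was at 459.9, 706 and 551 CPM in control and at 440.2, 138 and 224 CPM in cKO libraries. In CPM the first cKO library lay just under the lowest control and the other 2 far below. The DKO library was at 477 CPM, within the controls. The log2 fold change was -1.01 with a standard error of 0.391 (edgeR, unadjusted p = 0.0319, Benjamini-Hochberg adjusted p = 0.302). Without cKO library 1 it was -1.53 and passed the adjustment. Without that library 3310 pairs of a gene and a population were called over all genes, against 199 in the main analysis. The share of NSC-like cells with a Hes5 UMI, thinned to 2000 UMIs, was 44.3%, 54.7% and 52.0% in control, 44.0%, 18.2% and 28.4% in cKO and 46.9% in DKO libraries (83, 19 and 2 cells under that depth were left out in the 3 groups). Unthinned it was 65.2%, 82.7% and 80.3%, 66.8%, 45.9% and 56.1%, and 78.1%, so the level and the share ranked cKO libraries 2 and 3 lowest alike.

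Among the receptors in these cells, Notch1 was at 314, 287 and 279 CPM in control and at 257, 229 and 202 CPM in cKO libraries (log2 fold change -0.26, standard error 0.157, edgeR with Benjamini-Hochberg adjusted p = 0.505). The groups did not overlap, though the step was small, and DKO was at 203 CPM. Notch2 was at 140.2, 193 and 90.6 CPM in control and at 76.8, 99.4 and 52.9 CPM in cKO libraries, with DKO at 78.3 (log2 fold change -0.80, standard error 0.288, adjusted p by edgeR 0.267). Here 1 cKO library reached above the lowest control. Notch3 was at 14.5, 14 and 13.1 CPM in control and at 9.64, 7.67 and 12.5 CPM in cKO libraries (log2 fold change -0.34). Without integration of the libraries its log2 fold change was 0.07.

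The ligands were low in NSC-like cells. Dll1 was at 14.3, 14.4 and 10.0 CPM in control and at 9.99, 7.31 and 3.34 CPM in cKO libraries (log2 fold change -0.83, edgeR with Benjamini-Hochberg adjusted p = 0.297). The groups touched, since the highest cKO and the lowest control library were nearly equal. Jag1 was at 37.2, 33.7 and 16.6 CPM in control and at 24.3, 10.2 and 9.0 CPM in cKO libraries (log2 fold change -0.87, adjusted p by edgeR 0.413), with overlap. Without cKO library 1, Dll1 (-1.29) and Jag1 (-1.46) passed the adjustment, where 3310 pairs were called over all genes, against 199 in the main analysis.

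The other members overlapped between groups in NSC-like cells. Rbpj was at 65.7, 42.8 and 81.6 CPM in control and at 77.6, 80.7 and 68.4 CPM in cKO libraries (log2 fold change 0.33). Hes1 had a log2 fold change of -0.28 and Hey1 one of 0.22. Heyl was at 2.94, 2.88 and 4.53 CPM in control, 2.93, 1.10 and 1.29 in cKO and 1.61 CPM in DKO libraries, a log2 fold change of -0.86 with a standard error of 0.471 (edgeR with Benjamini-Hochberg adjusted p = 0.457), from 126 UMIs over the 7 libraries.

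Values that moved with these differences were as follows, and their part in the differences was not tested. In NSC-like cells the summed level of 8 neuroblast markers was 564 to 806 CPM in control, 272 to 513 in cKO and 618 CPM in DKO libraries, and that of 7 TAP markers was 274 to 309, 143 to 241 and 296 CPM. The 8 astrocyte markers were at 1522 to 1663 CPM in control, 1719 to 2280 in cKO and 1626 CPM in the DKO library. The 7 OPC markers were at 457 to 764 CPM in control, 442 to 454 in cKO and 402 CPM in the DKO library. Lower in all cKO libraries too were the 8 mural (113 to 145 against 87.5 to 112 CPM), 7 microglia (52.0 to 65.9 against 41.7 to 47.3 CPM) and 6 fibroblast markers (26.6 to 40.4 against 13.2 to 22.4 CPM). All markers of these lists were detected, and control and cKO libraries overlapped in none of them. Within the libraries of 1 Cell Ranger version, the log2(CPM + 1) difference of Hes5 was -1.21 for version 6.0.1 and -1.29 for version 6.1.1, which has 1 library a group. That of Notch2 was -0.91 and -0.77, that of Jag1 -1.11 and -0.82, that of Notch1 -0.31 and -0.46, and that of Dll1 -0.68 and -1.34. Other members were less alike between versions: Notch3 was at -0.67 and -0.07, Hes1 at -0.14 and -0.84, and Rbpj at 0.57 and -0.25.

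**Figure D4:**
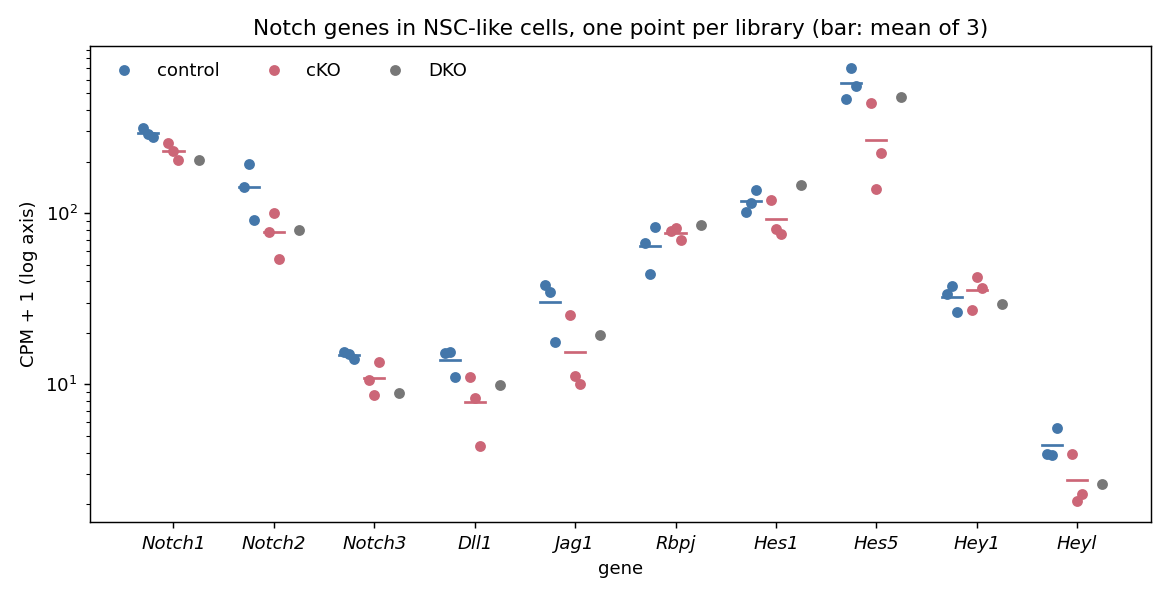
Levels of the members in NSC-like cells, as CPM + 1 on a log axis, with 1 point a library and a bar at the mean of the 3 control or cKO libraries. The control libraries lie above the cKO libraries for Hes5, Notch1, Notch3 and Dll1, and the DKO library lies within the controls for Hes5 and below them for Notch1.

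In astrocyte-like cells, which hGFAP-Cre also reaches, Jag1 had the largest difference of the members there, at a low level. It was at 6.68, 10.3 and 5.87 CPM in control, 2.15, 2.52 and 2.20 CPM in cKO and 0.891 CPM in DKO libraries, without overlap, as in 13.8% of genes there (log2 fold change -1.70, standard error 0.460, edgeR with Benjamini-Hochberg adjusted p = 0.0977, where 1.13% of genes were called). The thinned share of cells with a Jag1 UMI was 1.27%, 2.10% and 1.33% in control, 0.416%, 0.428% and 0.311% in cKO and 0.243% in DKO libraries (unthinned 3.37%, 8.64% and 4.33%, 1.19%, 2.08% and 2.33%, and 0.867%), against thinned medians of 0.260% in oligodendrocyte-like and 0.237% in microglia-like cells, so the cKO and DKO values lay near the share read as background. Notch2 was at 84.1, 120.0 and 60.5 CPM in control and at 48.1, 83.2 and 40.5 CPM in cKO libraries (-0.65, adjusted p by edgeR 0.465). Hes5 was at 508, 740.2 and 553 CPM in control and at 726, 599 and 632 CPM in cKO libraries, a log2 fold change of 0.13, so astrocyte-like cells showed no step of the kind seen in NSC-like cells. The difference between the populations was not tested. In these cells the 8 NSC markers summed to 1259 to 1533 CPM in control, 854 to 1104 in cKO and 1261 CPM in DKO libraries. Neuroblast (120 to 142 against 63.9 to 117 CPM), TAP (131 to 155 against 83.2 to 120 CPM) and fibroblast markers (5 of 6 detected, 27.5 to 40.3 against 7.23 to 18.5 CPM) were also lower in all cKO than in all control libraries, and astrocyte (4766 to 4967 against 5412 to 5455 CPM) and endothelial markers (12.97 to 29.6 against 30.1 to 53.4 CPM) were higher. The part of these lists in the Jag1 values was not tested.

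In cluster 9, Hes1 had the smallest unadjusted p of the members, at 10.5, 13.7 and 14.2 CPM in control, 19.3, 32.3 and 29.8 in cKO and 21.7 CPM in DKO libraries. All 3 cKO libraries and the DKO library lay above the controls (log2 fold change 1.10, standard error 0.256, edgeR with Benjamini-Hochberg adjusted p = 0.370, where 0% of genes were called). Within Cell Ranger versions the difference was 1.00 and 1.02 on the log2(CPM + 1) scale. Notch2 in the same cells was at 12.1, 10.6 and 10.8 CPM in control and at 6.56, 5.23 and 6.04 CPM in cKO libraries (-0.81), without overlap, as in 11% of genes there. The NSC markers of cluster 9 summed to 719 to 1066 CPM in control and 1173 to 1262 in cKO libraries, and their part was not tested.

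In other populations, Rbpj in ependymal-like cells was at 64.7, 43.5 and 68.1 CPM in control, 80.2, 121 and 92.1 in cKO and 92.1 CPM in DKO libraries, without overlap, as in 12.6% of genes there (log2 fold change 0.73, edgeR with Benjamini-Hochberg adjusted p = 0.261). The median depth of an ependymal-like cell was 2298, 1317 and 2588 UMIs in control, 8143, 3543 and 3366 in cKO and 1853 UMIs in DKO libraries, also without overlap of control and cKO. Mural markers in these cells summed to 402 to 611.04 CPM in control and 735 to 915 in cKO libraries. Neuroblast (890.0 to 1063 against 657 to 879.9 CPM), TAP (268 to 315 against 185 to 229 CPM) and fibroblast markers (38.4 to 43.5 against 16.4 to 32.6 CPM) were lower in all cKO libraries, and the part of depth and of these lists was not tested. Notch1 in neuroblast-like cells was at 74.7, 83.1 and 59.2 CPM in control and at 65.7, 38.6 and 36.7 CPM in cKO libraries (-0.55), with overlap, and the TAP markers there summed to 465 to 517 CPM in control and 263 to 463 in cKO libraries. Notch3 in endothelial-like cells was at 10.3, 12.2 and 9.71 CPM in control and at 13.2, 19.4 and 17.8 CPM in cKO libraries (0.76), without overlap, as in 8.27% of genes there. Without integration of the libraries the log2 fold change was -0.05. Mural markers in these cells summed to 943 to 1174 CPM in control and 965 to 1492 in cKO libraries, with overlap, and OPC markers to 79.3 to 158 and 28.7 to 71.4 CPM, without overlap, and their part was not tested. Endothelial-like cells do not descend from cells with hGFAP-Cre, so this value describes cells that the deletion is not known to reach. Other values with an unadjusted p under 0.05 were those of Jag1 in TAP-like cells (-0.56), at 29.9, 17.7 and 18.4 CPM in control and 19.1, 13.1 and 9.36 CPM in cKO libraries, and of Hey1 in cluster 15 (-0.55). Endothelial markers in TAP-like cells summed to 31.7 to 43.9 CPM in control and 17.8 to 24.6 in cKO libraries. Hey1 in cluster 15 was at 46.0, 60.5 and 33.1 CPM in control and 32.1, 33.0 and 24.8 CPM in cKO libraries, where neuron markers (146 to 199 against 47.0 to 134 CPM) and TAP markers (114 to 137 against 93.9 to 112 CPM) were lower in all cKO libraries as well. Notch2 in neuron-like cells, at 5.06, 9.49 and 5.28 CPM in control and 2.67, 0.919 and 2.69 CPM in cKO libraries, did not overlap between groups, as in 7.86% of genes there. Microglia markers (19.4 to 22.3 against 10.0 to 19.1 CPM) and neuroblast markers (807 to 924 against 559 to 789 CPM) in neuron-like cells did not overlap either, and the part of these lists in the Notch1, Jag1, Hey1 and Notch2 values was not tested. Hes5 had log2 fold changes of -1.87 in mural-like, -1.35 in microglia-like and -1.36 in cluster 15 cells, at a level of at most 43.7 CPM. The mural-like and microglia-like shares helped to set the range read as background above, so that range decides nothing about them. The thinned share had a median of 1.68% in mural-like, 2.29% in microglia-like and 1.91% in cluster 15 cells. Its highest values were 5.07%, 4.01% and 3.40%. In mural-like cells neuroblast markers (430 to 819.9 against 49.6 to 387 CPM) and neuron markers (619 to 652 against 510 to 606 CPM) were lower in all cKO libraries and endothelial markers higher (136 to 162 against 163 to 246 CPM). In microglia-like cells OPC markers (85.5 to 630 against 25.6 to 77.9 CPM) and choroid plexus markers (5.70 to 8.32 against 0 to 3.13 CPM) were lower, and the part of these lists in the Hes5 values was not tested.

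The further genes of the pathway were a list of 52, covering other receptors and ligands, modifiers, proteases, partners of Rbpj, further Hes and Hey genes and proneural genes. Of 676 pairs with a population, 567 were tested with edgeR, and 1 was called after Benjamini-Hochberg adjustment, where 0.124% of all pairs were. At an unadjusted p under 0.05 were 44 (7.76%), 20 higher and 24 lower. In NSC-like cells 49 of the 52 were tested with a median log2 fold change of -0.03, beside -0.57 over the 10 members and -0.01 over all genes. By role in these cells, the 7 other receptors and ligands were 3 higher and 4 lower, the 15 modifiers 6 and 9, the 8 proteases 7 and 1, the 14 partners of Rbpj 6 and 8, and the 4 tested genes among further Hes and Hey genes and the feedback target 1 and 3. The remaining role is not reported here. The 1 called pair was Dner in astrocyte-like cells.

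Dner, a membrane protein with epidermal growth factor repeats reported to bind Notch1, rose in astrocyte-like cells of cKO libraries. It was at 84.1, 93.3 and 72.4 CPM in control, 129, 246 and 224 in cKO and 135 CPM in DKO libraries, without overlap, as in 13.8% of genes there (log2 fold change 1.26, standard error 0.210, edgeR with Benjamini-Hochberg adjusted p = 0.00787). It was not called without control library 2, control library 3 or cKO library 2. Nor was it called without integration of the libraries or in the libraries of Cell Ranger 6.0.1 alone. The marker lists given for Jag1 in astrocyte-like cells moved with these libraries too, and their part was not tested. In NSC-like cells Dner was at 26.7, 27.3 and 24.0 CPM in control, 62.1, 206 and 193 in cKO and 73.1 CPM in DKO libraries. The groups did not overlap, as in 17.6% of genes there, but the adjusted p by edgeR was 0.0851 (log2 fold change 2.67). By DESeq2 it was called. By edgeR it was called without integration (2.74) and without cKO library 1 (3.06), where 3310 pairs were called over all genes. The 8 astrocyte markers in NSC-like cells were at 1522 to 1663 CPM in control and 1719 to 2280 in cKO libraries, and their part was not tested.

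Outside these cells, Dner in ependymal-like cells was at 44.2, 57.0 and 36.9 CPM in control and at 71.5, 137 and 169.6 CPM in cKO libraries (log2 fold change 1.59, edgeR with Benjamini-Hochberg adjusted p = 0.198), without overlap, as in 12.6% of genes there, and the depth per cell given for Rbpj differed too. In TAP-like cells it was at 14.3, 14 and 12.7 CPM in control and at 16.2, 37.5 and 33.6 CPM in cKO libraries (1.13), without overlap, as in 10.8% of genes there. OPC-like cells, where its level was highest, showed no such step, at 213, 183 and 177 CPM in control and 199, 219 and 205 CPM in cKO libraries. In the 4 populations with higher values, cKO library 1 was the lowest of the 3 cKO libraries, and the DKO library lay between the highest control and cKO library 2.

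**Figure D5:**
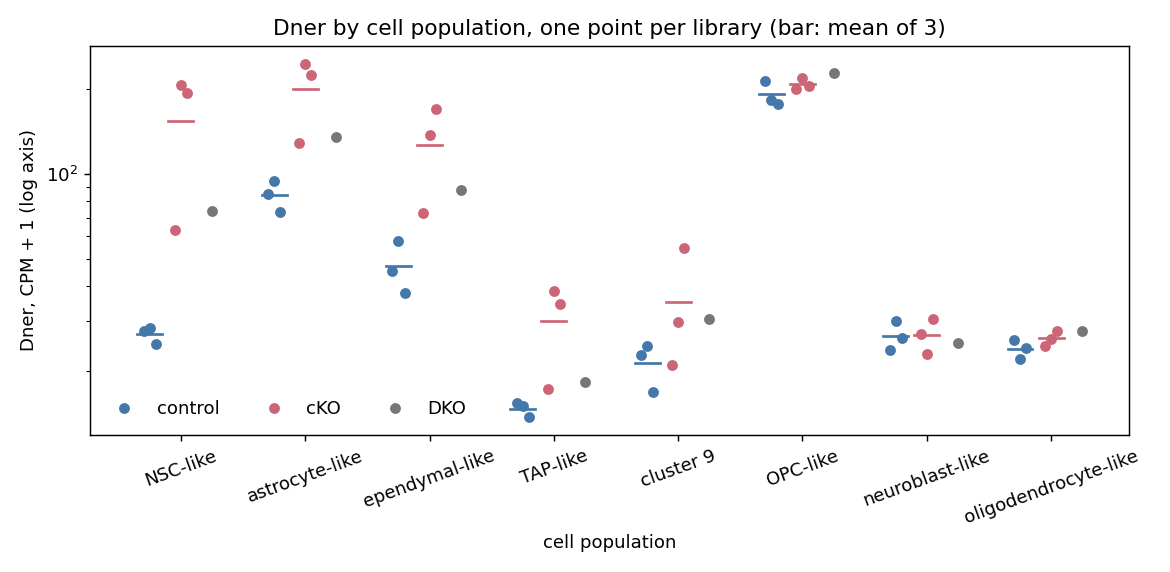
Levels of Dner in 8 populations, as CPM + 1 on a log axis, with 1 point a library and a bar at the mean of the 3 control or cKO libraries. The cKO libraries lie above the controls in NSC-like, astrocyte-like, ependymal-like and TAP-like cells, and the groups overlap in the other 4 populations.

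The DKO library was set beside the other groups without a test. Over the 106 tested pairs of a member and a population it lay below all 3 controls in 42 (39.6%) and above all 3 in 24 (22.6%), against 31.6% and 19% of all pairs of a gene and a population. In 10 pairs (9.43%) the DKO library and the 3 cKO libraries were all lower than the lowest control, against 4.78% of all pairs. In NSC-like cells these pairs were Notch1, Notch3 and Dll1. The cKO and DKO libraries were set beside the same 3 controls. In the same cells Hes5, at 477 CPM, lay within the range of the controls, while Notch2, at 78.3 CPM, lay below them, and Hes1, at 145 CPM, lay above them.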

How the data were processed

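The authors ran Cell Ranger on 10x 3′ libraries and deposited raw UMI counts per gene and cell barcode, with no normalization. The submitters' processing notes name version 6.1.1 and build mm10, and the file headers name 6.0.1 for control and cKO libraries 1 and 2 and 6.1.1 for the others. Counts of all 32285 listed genes were read. Cells with 500 to 7000 genes and at most 10% mitochondrial counts were kept, integrated in Seurat 5.3.0 (R 4.3.3; 2000 variable features, 30 components) and clustered at resolution 0.15. Names needed 3 or more markers of a type, each found in 10% or more of a cluster and higher there by 1 on the log2 scale. Clusters 9 and 15 met this for neuroblast and OPC but were kept apart and unnamed by choice. Of the kept cells, 5432 in 4 clusters that also met it were left out by choice (cells led by haemoglobin genes, fibroblast genes or mural genes with endothelial markers, and a second neuron-like cluster). Doublets were scored with Scrublet in Scanpy 1.11.5 (1043 cells, 2.41%) and kept in the main analysis.

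Counts were summed per library and population (at least 10 cells; 25 was the fewest) and compared with edgeR 4.0.16 (TMM, filter on low counts, robust quasi-likelihood test, Benjamini-Hochberg over all genes, threshold 0.05) in 1 fit of 7 libraries and 3 groups. The p-values measure the spread between these pools. Levels are CPM without TMM factors, the overlap of groups is read from them, and log2 levels have a pseudocount of 1. The test was tried on simulated counts. Populations were compared with exact two-sided permutation tests over libraries. Alternatives were DESeq2 1.42.0, other filters, clusters and normalizations, a replicate block and each library left out. Gene positions and motif windows came from GRCm38. The 10 members are named throughout, further pathway genes are named where called or from a list of 10 chosen for levels (1 of them is not reported here), and the members and lists were chosen with earlier results of these data known.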

Additional observations from a re-analysis of the deposited data

Results flagged for a closer look

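Notch3 had log2 fold changes of opposite sign in different populations. In endothelial-like cells all cKO libraries lay above all controls, with a log2 fold change of 0.76. In NSC-like cells all cKO libraries lay below all controls in CPM, though not after division by the TMM factors, with a log2 fold change of -0.34. In oligodendrocyte-like cells all cKO libraries lay below all controls in CPM, with a log2 fold change of -0.99, at levels of at most 0.861 CPM. Without integration of the libraries the log2 fold change was -0.05 in endothelial-like and 0.07 in NSC-like cells, so both signs turned there. The difference between the populations was not tested, and none of the 3 values passed the adjustment over all genes. Groups of 3 libraries are too small to look for single outlying samples.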

How the results depend on the processing

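Of 20 alternatives to the comparison of cKO with control libraries, 17 called 0 of the members' pairs, DESeq2 among them. The alternative without the DKO library is counted under 2 names, with 141 genes called over all genes under each. Alternatives with fewer control or cKO libraries have less power, so their values of 0 show no stability. Without the filter on low counts 5 were called (Rbpj in ependymal-like cells, Hes1 in cluster 9, Notch2 and Jag1 in astrocyte-like cells, Hes5 in mural-like cells). Leaving out 1 library gave 0 to 6 calls. The 6 came without cKO library 1: Dll1 (-1.29), Jag1 (-1.46) and Hes5 (-1.53) in NSC-like cells, Notch1 in neuroblast-like cells (-0.88), Rbpj in ependymal-like cells (0.89) and Hes1 in cluster 9 (1.33). Without that library 3310 pairs were called over all genes, against 199 in the main analysis. Of 2030 values of members under alternatives, 2014 stayed on the same side of the threshold, 16 passed it only there, and 165 had the other sign, none of them called. Pathway genes called were 1 in the main analysis, 9 by DESeq2, 11 without the filter, 2 at resolution 0.3, 0 with version 6.0.1 alone and 0 to 16 on leaving out 1 library (0 without control library 2, control library 3 or cKO library 2, and 16 without cKO library 1). All genes called were 199 (171 higher, 28 lower), 1050 by DESeq2, 388 without TMM, 2071 without the filter, 333 with the Cell Ranger version as a block, 53 with version 6.0.1 alone and 31 to 3310 on leaving out 1 library. The order of populations had 0 of 120 steps past the threshold, and 32 of 100 at resolution 0.3. Fewer steps lower the number at the smallest p that is needed to pass. On leaving out a library 0 steps passed each time. Fewer libraries raise the smallest p the test allows, so these values of 0 show no stability. The cause of the changes in the calls of cKO against control was not tested. The alternatives with joined clusters and those on the Cell Ranger version were chosen after seeing the data. The mean log2 TMM factor of cKO minus that of control libraries was -0.11 to -0.01, with a size over 0.1 only in endothelial-like cells. Smaller factors in cKO libraries raise the log2 fold changes.

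Replicate numbers are shared by the labels of control and cKO libraries. With the number as a replicate block, 5 members' pairs (Notch2 and Jag1 in NSC-like and astrocyte-like cells, Hes1 in cluster 9), 2 pathway genes' pairs and 1428 genes were called. All 3 pairs of same-numbered libraries correlated above 0.1 in their deviations only in oligodendrocyte-like and endothelial-like cells, so the numbers were not taken to pair the libraries.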

Other observations

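The 4 clusters left out of the populations held members too, pooled over the 7 libraries. They carried enough markers for a name (erythroid, fibroblast, neuron and mural) and were left out by choice. Cluster 4 (3430 cells, led by haemoglobin genes, with a median of 1188 UMIs) held Hes5 at 259.8 CPM and Notch1 at 134 CPM. These levels are assigned to no cell type. At resolution 0.3 the haemoglobin-led cluster held 172 cells. Beside it lay an unnamed cluster of 3367 cells (median 1171 UMIs) with 6 astrocyte markers, whose leading genes Lgi4 and Sfxn5 also led cluster 4. Cluster 4 held 8.21%, 5.41% and 7.06% of kept cells in control, 2.67%, 10.9% and 14.6% in cKO and 8.21% in DKO libraries. Its part in the Hes5 values of NSC-like cells was not tested. Cluster 10 (1192 cells, 970 of them from control library 2, led by the collagen genes Col1a1 and Col3a1 and by Dcn) held Notch2 at 60.3 CPM, Hes1 at 115 CPM and Hes5 at 7.89 CPM. Cluster 14 (469 cells, led by Sst and Npy, interneuron genes) held Rbpj at 66.8 CPM, with 0 UMIs of Heyl. Cluster 16 (341 cells, led by Rgs5 and carrying 8 mural and 7 endothelial markers) held Notch1 at 329 CPM, Notch3 at 273 CPM and Heyl at 117 CPM. In ependymal-like cells the summed level of 6 choroid plexus markers was 547 to 2492 CPM in control, 160 to 691 in cKO and 3241 CPM in the DKO library, and its part in the Rbpj values there was not tested.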
